A study of Homo sapiens with 6 samples.

Results

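Nuclear import, export and pore genes were taken from the count table by their symbols, and the table held 57 of them among 16934 genes. By role they were 8 exportins, 19 importins (12 of the importin beta family and 7 importin alphas), 5 genes of the Ran cycle and 23 genes of the nuclear pore. RANBP9 and RANBP10 share the RANBP name but encode scaffolds of a ubiquitin ligase, and were kept apart from these classes. RANBP2 was placed with the pore, RANBP6 with the importin beta family as a relative of IPO5, and RANBP17 with the exportins as a relative of XPO7. Of the 57 genes, 52 had enough counts for a test, and the other 5 are described by their counts.

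Messenger RNA was sequenced from A375, an established human melanoma line that carries an activated BRAF. The cells had received CRISPR-Cas9 (Alt-R system) with an sgRNA against POLK, the gene of the translesion DNA polymerase kappa, or with a non-targeting control sgRNA. Each sgRNA was represented by 3 libraries, and all 6 came from the same line grown in the same medium, with no drug named. Count columns share 1 name stem within a group, and no label says whether libraries of a group were separate cultures or clones. The p-values below therefore measure only the spread between libraries, which may be technical, and an effect of POLK editing cannot be told apart from any other difference between the 2 edited populations.

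Proteins and RNAs cross the nuclear envelope through the nuclear pore complex, a ring of nucleoporins. Importins bind cargo in the cytoplasm and release it in the nucleus when they meet the small GTPase Ran bound to GTP. Exportins bind cargo together with Ran-GTP and release it in the cytoplasm, where RANGAP1 makes Ran hydrolyse its GTP. Importin alphas are adaptors: they read the classical nuclear localisation signal and ride on importin beta 1 (KPNB1), and CSE1L carries them back out.

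Total counts were 46559658 to 56891905 in POLK sgRNA libraries and 42852645 to 55003324 in control sgRNA libraries. POLK mRNA averaged 18.2 ± 1.003 CPM with the POLK sgRNA and 23.3 ± 0.842 CPM with the control sgRNA (counts per 1000000; SD, n = 3 each), 78.1% of the control level (log2 fold change −0.36, SE 0.05, adjusted p = 7.91e-08, edgeR). Of 13930 genes tested with edgeR, 64.3% had an adjusted p under 0.05, 32.8% higher and 31.6% lower with the POLK sgRNA. The neural crest and melanocyte gene SOX10 averaged 1155 CPM with the POLK sgRNA and 1060 CPM with the control sgRNA, while the pigment genes MLANA, PMEL, TYR and DCT stayed under 1 CPM in both means. Summed leukocyte markers (6 of 7 listed genes in the table) ran at 58.1 to 60.3 CPM in POLK sgRNA libraries and 17.7 to 18.0 CPM in control sgRNA libraries, almost all of it CD68 and LYZ (LYZ lies on chromosome 12), while the defining leukocyte gene PTPRC averaged 0.0311 CPM with the POLK sgRNA and 0.0269 CPM with the control sgRNA. Marker sums of fibroblasts (29.5 to 29.7 against 20.1 to 20.4 CPM), epithelium (149.2 to 155.2 against 101.1 to 103.0 CPM) and endothelium (5.57 to 6.04 against 2.93 to 3.90 CPM) were also higher in POLK sgRNA than in control sgRNA libraries, and their part in the results below was not tested. The epithelial sum was almost all KRT18 (126.5 against 82.9 CPM) and KRT8 (23.8 against 17.8 CPM), both on chromosome 12, while EPCAM stayed under 1 CPM. Of the fibroblast markers 3 rose, LUM and DCN on chromosome 12 among them, and 2 fell (PDGFRA and COL1A2). Of the endothelial markers 3 rose and 1 fell (CDH5). In bulk RNA, a change in the number of cells of a type and a change in RNA per cell cannot be told apart.

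With the POLK sgRNA, nuclear transport and pore genes were called about as often as genes at their levels, and most changed by small amounts. Of the 52 tested members, 11 rose and 25 fell, together 69.2%. Of all genes tested 64.3% were called, and of genes within the members' range of CPM 68.3%. The share that rose was 21.2% among members, 32.8% among all genes and 34.7% within the members' range of CPM. The share that fell was 48.1% among members, 31.6% among all genes and 33.6% within that range. The median log2 fold change was −0.06 over the members and 0.01 over all genes. Members that moved by 1.25-fold or more numbered 8 (15.4%, against 31.7% of all genes and 23.3% of genes within the members' range of CPM), 5 of them up (XPOT, RANBP17, NUP37, NUP107 and NUP88) and 3 down (NUP93, RANBP2 and RANBP10). XPOT and NUP37 alone passed 1.5-fold, 3.85% of the tested members, against 15.6% of all genes and 8.50% of genes within the members' range of CPM. The 2 groups of libraries did not overlap in 11 members that were higher and 23 that were lower, where the shares over all genes were 34.6% and 33.1%. The 11 that were higher here include RANGAP1, which was not called, and leave out IPO13, which was called higher.

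**Figure D1:**
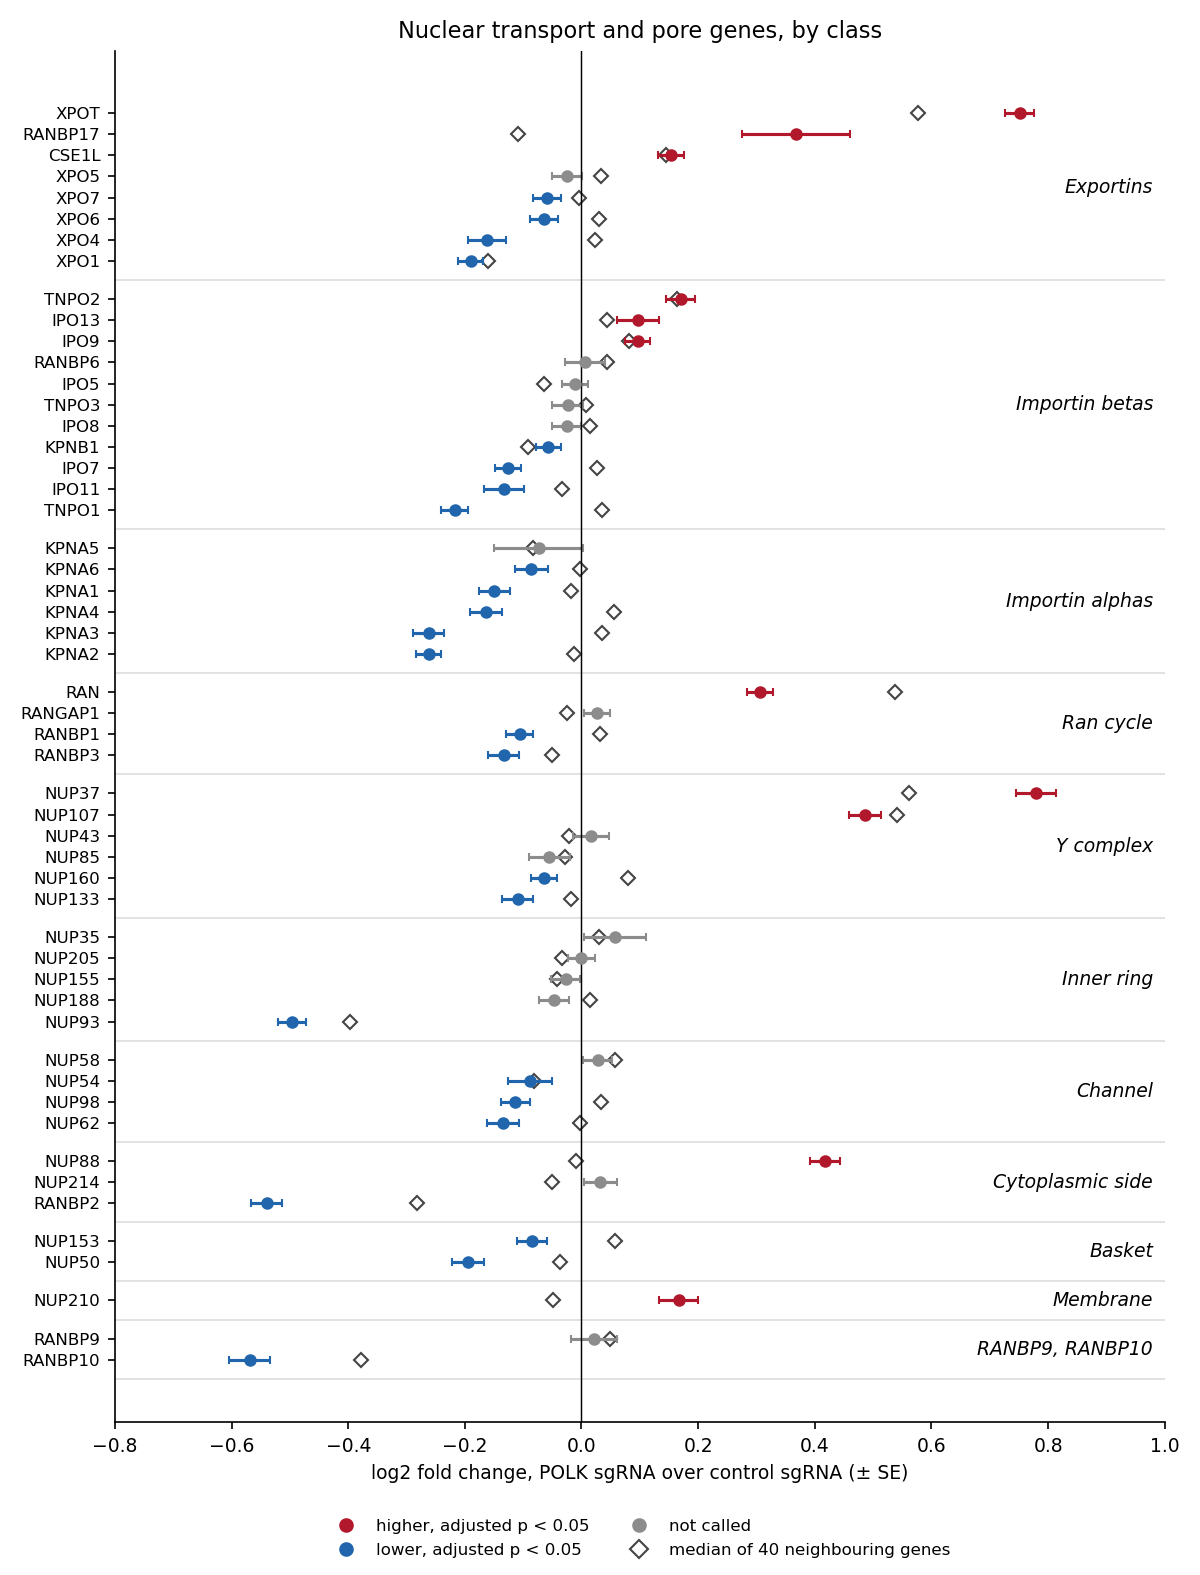
Log2 fold change (POLK sgRNA over control sgRNA, with its standard error, x axis) of the 52 tested members, grouped by role. Points are coloured by the call at an adjusted p of 0.05. Diamonds give the median over up to 40 neighbouring genes on the chromosome. All 6 importin alphas lie left of 0, while XPOT, NUP37, NUP107, NUP93, RANBP2 and RANBP10 lie far from 0 on the same side as their diamonds.

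Of the 8 members that moved by 1.25-fold or more, 7 lay among neighbours that were shifted as well. For each member, the median log2 fold change of its nearest tested genes was set beside its own value. Up to 20 genes were taken on each side (at 1 CPM or more on average, members left out). A neighbourhood was called shifted when that median lay at least 0.1 from the median of all genes. Of the 52 tested members, 12 lay in shifted neighbourhoods, and all 12 were called. There, 7 were higher (58.3%, against 32.8% of all genes) and 5 lower (41.7%, against 31.6% of all genes). These 12 were picked by the shift of the genes around them, so all genes are not a like background. Among tested genes at 1 CPM or more on average, 80.5% rose on chromosome 12 and 57.3% fell on chromosome 2. Shares among other genes in shifted neighbourhoods were not computed. In 11 of these 12 the member and its neighbours moved in the same direction, and RANBP17 was the exception. Around these 11, the neighbours called in the same direction numbered from 18 of 40 (KPNB1) to 39 of 40 (NUP37). Of the 40 members elsewhere, 4 rose, 20 fell and 16 were not called, and their median was −0.06 on the log2 scale. The 4 that rose were IPO9, IPO13, NUP88 and NUP210, and NUP88 alone of the 40 moved by 1.25-fold or more. The neighbours of IPO9 had a median of 0.08, with 18 of 40 higher and 7 lower, and IPO9 stood 0.01 above that median. Whether the neighbourhood has a part in a member's change was not tested.

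**Figure D2:**
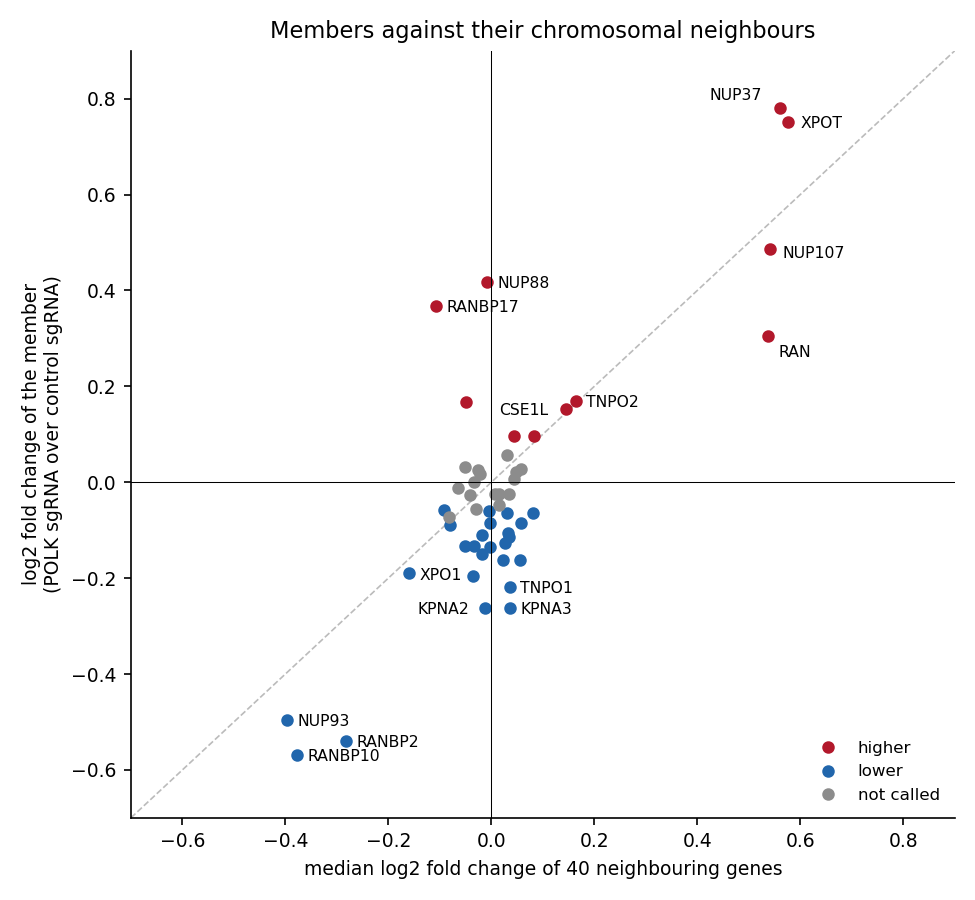
Log2 fold change of each of the 52 tested members (y axis) against the median of up to 40 chromosomal neighbours (x axis), with the line of equal values dashed. NUP37, XPOT, NUP107 and RAN stand with neighbours between 0.54 and 0.58, NUP93, RANBP10 and RANBP2 with neighbours between −0.40 and −0.28, and KPNA2, KPNA3, TNPO1 and NUP88 differ from neighbours that are near 0.

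Among the 8 exportins, 3 rose (37.5%, against 32.8% of all genes), 4 fell (50%, against 31.6%) and 1 was not called, and the median was −0.04 on the log2 scale. XPOT, which exports tRNA, had 332.9, 316.9 and 319.7 CPM in POLK sgRNA libraries, against 195.9, 190.8 and 189.6 CPM in control sgRNA libraries. Every POLK sgRNA library was far above every control sgRNA library. The log2 fold change was 0.75 (SE 0.02, adjusted p = 9.95e-24, edgeR), and the neighbours of XPOT on chromosome 12 (64404350 to 64451127, plus strand, GRCh38) had a median of 0.58, with 38 of 40 higher. XPOT stood 0.17 above that median.

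XPO1, the exportin for proteins with a leucine-rich export signal and for several RNAs, was lower. It had 446.8, 431.5 and 436.8 CPM in POLK sgRNA libraries, against 508.2, 494.9 and 497.7 CPM in control sgRNA libraries, with no overlap. Its log2 fold change was −0.19 (SE 0.02, adjusted p = 3.81e-09, edgeR), a level 87.6% of control. XPO1 lies on chromosome 2 (61477849 to 61538626), where its 40 neighbours had a median of −0.16 and 23 of them fell, so that XPO1 differed from that median by −0.03.

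CSE1L, which returns importin alphas to the cytoplasm, was higher in each POLK sgRNA library, at 466.3, 454.3 and 456.4 CPM, against 418.5, 412.7 and 407.4 CPM in control sgRNA libraries. Its log2 fold change of 0.15 (SE 0.02, adjusted p = 2.55e-07, edgeR) lay 0.01 above the median of its neighbours on chromosome 20 (0.14), of which 21 of 40 rose and 7 fell. The groups did not overlap.

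The remaining exportins moved less or stood at lower levels. RANBP17 had 4.41, 4.77 and 4.96 CPM in POLK sgRNA libraries, against 3.50, 3.83 and 3.56 CPM in control sgRNA libraries, and its log2 fold change of 0.37 (SE 0.09, adjusted p = 0.000798, edgeR) ran against neighbours with a median of −0.11. Its close relative XPO7, at 141.8 ± 0.969 CPM with the POLK sgRNA and 147.9 ± 2.24 CPM with the control sgRNA, fell by 0.06 on the log2 scale. XPO4, which exports the translation factor eIF5A and the signalling protein SMAD3, fell by 0.16 (63.2 ± 2.69 CPM with the POLK sgRNA against 70.8 ± 1.25 CPM with the control sgRNA). Its 29 neighbours had a median of 0.02. XPO6, the exportin of actin, fell by 0.06 (220.0 ± 4.20 CPM with the POLK sgRNA against 230.0 ± 4.54 CPM with the control sgRNA). XPO5, which exports pre-miRNAs, was not called, with a log2 fold change of −0.03 (SE 0.03, adjusted p = 0.40, edgeR). The calls of XPO6 and XPO7 did not hold under every setting: XPO6 lost its call on leaving out control sgRNA library 1 (adjusted p = 0.055) or POLK sgRNA library 1 (0.092), and XPO7 on leaving out control sgRNA library 3 (0.082) or POLK sgRNA library 2 (0.11). With library size alone as the scaling, the adjusted p was 0.071 for XPO6 and 0.11 for XPO7, which left 2 exportins lower, and without a filter it was 0.059 for XPO7.

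Importin betas, the receptors that carry cargo inward, moved in both directions: of 11 tested, 3 rose (27.3%), 4 fell (36.4%) and 4 were not called, shares near the 32.8% and 31.6% of all genes. The transportins gave the widest split. TNPO1, the receptor for many RNA-binding proteins, had 271.8, 262.7 and 265.1 CPM in POLK sgRNA libraries, against 313.0, 311.4 and 305.7 CPM in control sgRNA libraries. TNPO2, its close relative, had 196.1, 202.6 and 205.2 CPM in POLK sgRNA libraries, against 178.2, 181.8 and 176.6 CPM in control sgRNA libraries. Neither gene's groups overlapped, and the directions were opposite, with log2 fold changes of −0.22 for TNPO1 (SE 0.02, adjusted p = 3.33e-10, edgeR) and 0.17 for TNPO2 (SE 0.02, adjusted p = 2.32e-07, edgeR). TNPO1 fell among neighbours with a median of 0.04 on chromosome 5, while TNPO2 moved with its neighbours on chromosome 19, at 0.16.

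Of the other importin betas, IPO7, which carries histones and ribosomal proteins, had 367.5, 358.0 and 350.4 CPM in POLK sgRNA libraries, against 389.9, 392.2 and 391.8 CPM in control sgRNA libraries, and fell by 0.13 (SE 0.02, adjusted p = 1.08e-05, edgeR). The groups did not overlap. Its relative IPO8 was not called. IPO11 fell by 0.13 (44.1 ± 1.04 CPM with the POLK sgRNA against 48.4 ± 0.921 CPM with the control sgRNA). LRRC70 and KIF2A on the same strand share 22.6% of its annotated exon bases, and KIF2A fell by 0.08. IPO9 (314.2 ± 2.83 CPM with the POLK sgRNA against 293.9 ± 1.49 CPM with the control sgRNA) and IPO13 (54.2 ± 2.25 CPM with the POLK sgRNA against 50.7 ± 1.90 CPM with the control sgRNA) rose by 0.10 each, IPO13 with overlapping groups and without a call on leaving out control sgRNA library 3 (adjusted p = 0.16) or POLK sgRNA library 1 (0.14), or in DESeq2 (0.078). KPNB1, the central import receptor, had 795.8, 773.0 and 780.2 CPM in POLK sgRNA libraries, against 814.4, 816.1 and 813.1 CPM in control sgRNA libraries, without overlap and among neighbours with a median of −0.09. That fall of 0.06 (SE 0.02, adjusted p = 0.018, edgeR) did not pass on leaving out control sgRNA library 2 (0.067), POLK sgRNA library 2 (0.12) or POLK sgRNA library 3 (0.064), nor with library size alone (0.064). IPO5, RANBP6 and TNPO3 were not called, with log2 fold changes of −0.01, 0.01 and −0.02.

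Importin alphas were lower as a group. Of 6 tested, 5 fell (KPNA1, KPNA2, KPNA3, KPNA4 and KPNA6) and none rose, and their median log2 fold change was −0.16, where 31.6% of all genes were lower and the median of all genes was 0.01. Their summed level was 86.0 to 87.2% of the control mean in the 3 POLK sgRNA libraries and 99.4 to 100.6% in the 3 control sgRNA libraries. No importin alpha lay in a shifted neighbourhood, and the medians of their neighbours ran from −0.08 to 0.05.

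KPNA2, an importin alpha abundant in dividing cells, had 392.6, 396.2 and 395.7 CPM in POLK sgRNA libraries, against 466.1, 478.3 and 475.9 CPM in control sgRNA libraries. KPNA3 had 103.0, 100.5 and 100.3 CPM in POLK sgRNA libraries, against 123.3, 122.7 and 118.3 CPM in control sgRNA libraries. Both were at 83.4% of control without overlap, each with a log2 fold change of −0.26 (SE 0.02 and adjusted p = 1.29e-12 for KPNA2, SE 0.03 and adjusted p = 1.65e-10 for KPNA3, edgeR). KPNA4, the nearest relative of KPNA3, had 112.8, 108.5 and 106.2 CPM in POLK sgRNA libraries, against 124.4, 123.6 and 118.8 CPM in control sgRNA libraries, and fell by 0.16 (SE 0.03, adjusted p = 4.32e-06, edgeR). In KPNA2, KPNA3 and KPNA4 alike, every POLK sgRNA library was below every control sgRNA library. KPNA1 (94.2 ± 1.15 CPM with the POLK sgRNA against 104.5 ± 1.04 CPM with the control sgRNA) and its relative KPNA6 (127.1 ± 5.20 CPM with the POLK sgRNA against 135.0 ± 3.06 CPM with the control sgRNA) fell by 0.15 and 0.09, KPNA6 with overlapping groups and without a call on leaving out POLK sgRNA library 2 (adjusted p = 0.074). KPNA5, at 6.61 ± 0.520 CPM with the POLK sgRNA and 6.94 ± 0.300 CPM with the control sgRNA, was not called (log2 fold change −0.07, SE 0.08). KPNA1 shares 16.3% of its exon bases with an antisense RNA. Without KPNA2, the other importin alphas summed to 89.4% of the control mean. Markers of proliferation were lower in sum, at 2843 to 2898 CPM in POLK sgRNA libraries and 3037 to 3046 CPM in control sgRNA libraries. Of 13 listed genes 8 fell, where 31.6% of all genes fell, and 1 rose (MCM2, by 0.10). MKI67, TYMS, RRM2 and AURKB were not called. BUB1 fell furthest, by 0.46, on chromosome 2 among neighbours with a median of −0.31. The part of proliferation in the importin alpha result was not tested.

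**Figure D3:**
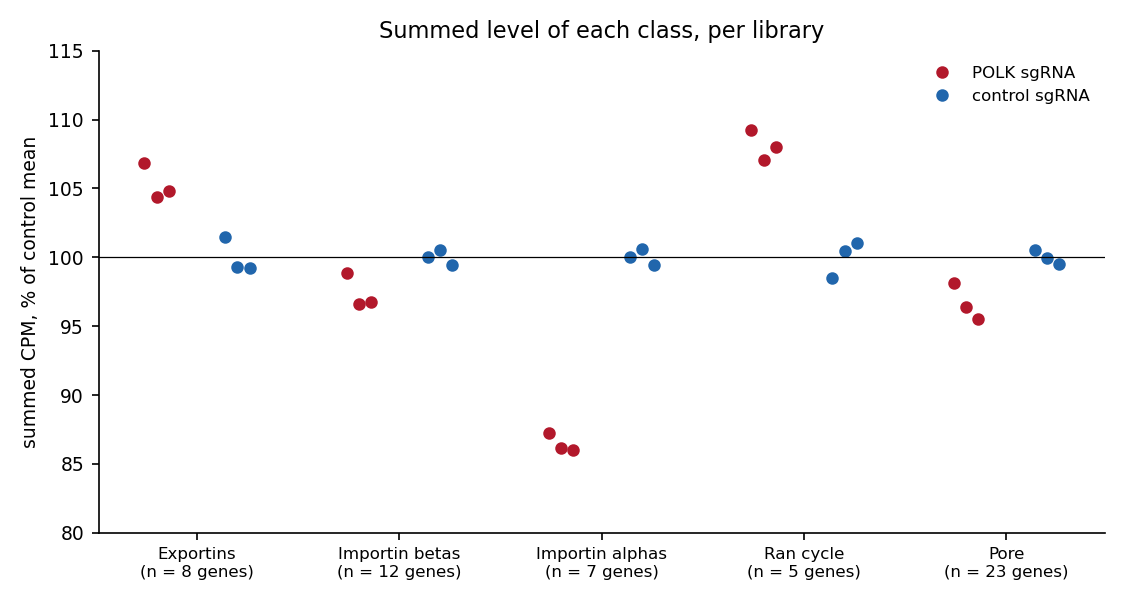
Summed CPM of each class in each library, as a percentage of the mean of the control sgRNA libraries (y axis, not from 0); each point is 1 library. Importin alphas lie at 86.0 to 87.2% with the POLK sgRNA and exportins at 104.4 to 106.9%, of which XPOT makes up the excess, since without it the exportins lie at 96.6 to 98.4%.

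Promoter windows (RefSeq, GRCh38.p14, 250 bases before to 50 after the start of the gene) were found for 50 of the 57 members. The 5 below are shown because their genes changed in neighbourhoods that were not shifted (KPNA2, KPNA3, TNPO1 and NUP88) or moved the opposite way to a close relative (TNPO2). They lie at chr17:68035485-68035784 on the plus strand (KPNA2), chr13:49792633-49792932 on the minus strand (KPNA3), chr5:72816411-72816710 on the plus strand (TNPO1), chr19:12723883-12724182 on the minus strand (TNPO2) and chr17:5419613-5419912 on the minus strand (NUP88). Capitals mark matches, on either strand, to CCAAT (the NF-Y box), TTTGAA (an element of cell cycle genes), CACGTG (an E-box) and CCGGAAG (an ETS site).
KPNA2: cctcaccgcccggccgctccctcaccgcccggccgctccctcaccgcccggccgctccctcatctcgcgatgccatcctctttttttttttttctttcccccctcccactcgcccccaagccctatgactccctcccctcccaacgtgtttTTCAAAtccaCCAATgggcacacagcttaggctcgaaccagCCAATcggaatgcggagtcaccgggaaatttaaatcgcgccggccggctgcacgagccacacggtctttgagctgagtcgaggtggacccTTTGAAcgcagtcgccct
KPNA3: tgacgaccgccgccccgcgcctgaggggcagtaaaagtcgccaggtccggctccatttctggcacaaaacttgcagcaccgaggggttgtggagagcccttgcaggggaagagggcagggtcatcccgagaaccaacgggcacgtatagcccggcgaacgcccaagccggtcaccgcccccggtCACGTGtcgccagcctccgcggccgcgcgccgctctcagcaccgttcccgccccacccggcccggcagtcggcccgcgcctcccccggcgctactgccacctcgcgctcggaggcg
TNPO1: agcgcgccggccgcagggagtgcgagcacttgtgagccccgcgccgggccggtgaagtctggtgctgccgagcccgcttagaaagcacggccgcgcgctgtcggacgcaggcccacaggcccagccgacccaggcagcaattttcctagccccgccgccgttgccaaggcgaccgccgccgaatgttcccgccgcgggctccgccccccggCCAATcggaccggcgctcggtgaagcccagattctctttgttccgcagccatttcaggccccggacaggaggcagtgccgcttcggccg
TNPO2: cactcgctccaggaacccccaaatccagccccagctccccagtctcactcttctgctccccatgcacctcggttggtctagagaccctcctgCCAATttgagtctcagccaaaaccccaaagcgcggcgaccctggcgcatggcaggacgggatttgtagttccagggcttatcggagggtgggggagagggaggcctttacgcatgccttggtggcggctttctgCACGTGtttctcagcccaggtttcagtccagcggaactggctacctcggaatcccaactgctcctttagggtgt
NUP88: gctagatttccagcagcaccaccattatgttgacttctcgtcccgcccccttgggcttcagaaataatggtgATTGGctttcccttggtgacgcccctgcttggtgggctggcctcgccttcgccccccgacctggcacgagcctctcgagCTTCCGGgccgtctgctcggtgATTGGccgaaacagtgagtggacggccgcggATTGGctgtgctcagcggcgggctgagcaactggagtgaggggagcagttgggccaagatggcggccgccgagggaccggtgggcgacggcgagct
KPNA2 held CCAAT at 2 places and TTTGAA at 2, KPNA3 a single CACGTG, TNPO1 a single CCAAT, TNPO2 CCAAT and CACGTG once each, and NUP88 CCAAT at 3 places and CCGGAAG once, and no match overlapped another. CCAAT occurred in 48.0% of the 50 member windows, in 36.5% of the windows of 10842 tested genes and in 35.7% of all 27305 windows. In the same order the shares were 22.0%, 9.80% and 15.4% for TTTGAA, 14.0%, 9.92% and 7.43% for CACGTG, and 26.0%, 18.1% and 10.7% for CCGGAAG. TGATGNAA, the core of the ATF4 element (N is any base), was also searched, and occurred in 2.0%, 1.84% and 3.67%, with NUP153 the single member that held it. A match is a string of letters in the window and was not measured as a binding site.

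In the Ran cycle, RAN rose, RANBP1 and RANBP3 fell and RANGAP1 was not called. RAN had 615.1, 596.7 and 601.2 CPM in POLK sgRNA libraries, against 479.3, 488.6 and 498.9 CPM in control sgRNA libraries. Its log2 fold change was 0.31 (SE 0.02, adjusted p = 5.23e-14, edgeR) without overlap between the groups. RAN, the GTPase itself, lies near the end of chromosome 12 (130871879 to 130877678), and its 40 neighbours had a median of 0.54, so that RAN stood 0.23 below them. RANBP1, which helps release Ran-GTP from transport receptors, had 246.7, 243.1 and 245.5 CPM in POLK sgRNA libraries, against 256.1, 266.8 and 268.3 CPM in control sgRNA libraries, and fell by 0.11 (SE 0.02, adjusted p = 0.000190, edgeR). RANBP1 shares 11.2% of its exon bases with other genes, chiefly TRMT2A on the opposite strand, which rose by 0.52. RANBP3, a cofactor of XPO1, had 97.9, 96.1 and 97.4 CPM in POLK sgRNA libraries, against 106.1, 106.5 and 107.1 CPM in control sgRNA libraries, and fell by 0.13 (SE 0.03, adjusted p = 3.56e-05, edgeR). RANGAP1 was not called, at 288.0 ± 1.28 CPM with the POLK sgRNA and 282.8 ± 3.10 CPM with the control sgRNA (log2 fold change 0.03, SE 0.02), though its groups did not overlap. The class as a whole summed to 1235 ± 12.2 CPM with the POLK sgRNA and 1142 ± 15 CPM with the control sgRNA, and without RAN to 630.2 ± 3.47 CPM with the POLK sgRNA and 653.1 ± 6.62 CPM with the control sgRNA.

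**Figure D4:**
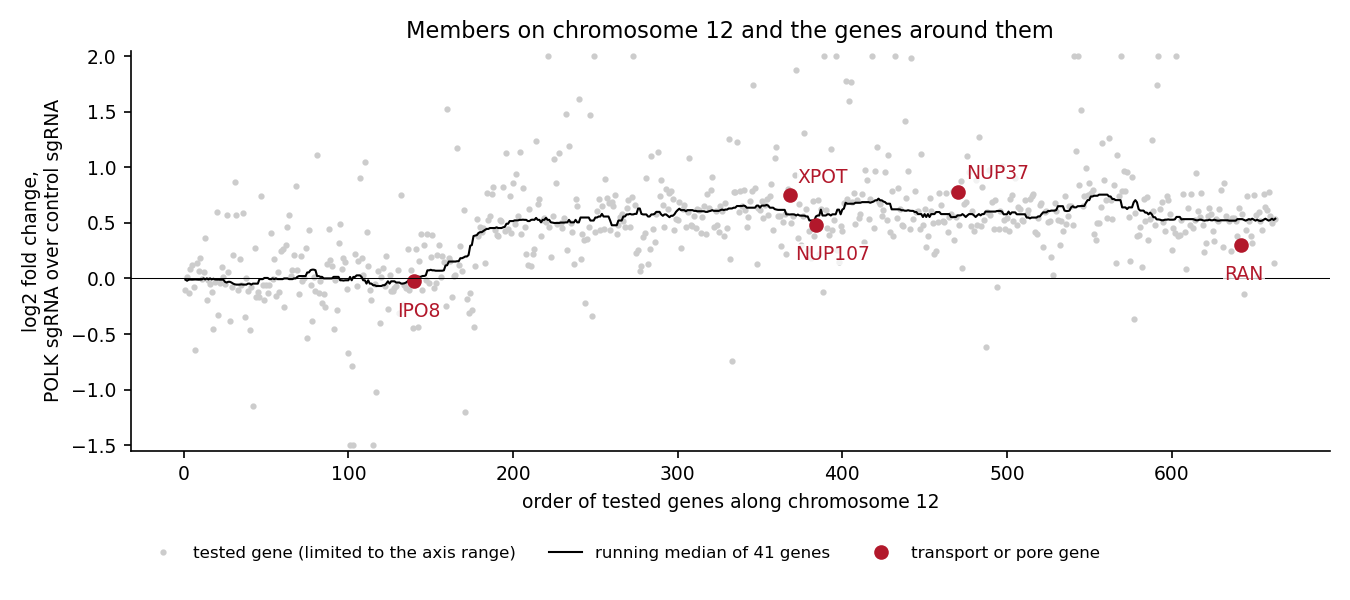
Log2 fold change (POLK sgRNA over control sgRNA, y axis, points limited to −1.5 and 2) of tested genes at 1 CPM or more on average, in their order along chromosome 12 (x axis), with the running median of 41 genes as a line. XPOT, NUP107, NUP37 and RAN lie where the line runs between 0.53 and 0.58, and IPO8 lies where it is 0.01.

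Chromosome 12 held 5 tested members, 4 of them where neighbouring genes were higher and IPO8 where they were not. Of the 663 tested genes there at 1 CPM or more on average, 80.5% rose and 9.80% fell. IPO8, the member nearest to the start of the chromosome, had 126.8, 128.8 and 125.1 CPM in POLK sgRNA libraries, against 129.1, 129.7 and 128.6 CPM in control sgRNA libraries, so that the groups overlapped, and its neighbours had a median of 0.01. Relative to their own neighbours, XPOT stood at 0.17, NUP37 at 0.22, NUP107 at −0.05 and RAN at −0.23 on the log2 scale.

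Among 21 tested pore genes, 4 rose (19.0%, against 32.8% of all genes), 9 fell (42.9%, against 31.6%) and 8 were not called. Together 61.9% were called, near the 64.3% of all genes. The median was −0.05 on the log2 scale. The Y complex, the outer ring scaffold on both faces of the pore, held the 2 largest increases of the pore. NUP37 had 59.7, 58.8 and 60.8 CPM in POLK sgRNA libraries, against 34.9, 35.7 and 33.8 CPM in control sgRNA libraries, a log2 fold change of 0.78 (SE 0.03, adjusted p = 5.57e-20, edgeR). NUP107 had 103.9, 106.2 and 105.3 CPM in POLK sgRNA libraries, against 73.5, 75.4 and 76.3 CPM in control sgRNA libraries, a log2 fold change of 0.49 (SE 0.03, adjusted p = 6.23e-17, edgeR). Both lie on chromosome 12 (NUP37 at 102073103 to 102120124, NUP107 at 68686734 to 68745809), where the medians of their neighbours were 0.56 and 0.54. None of the other 4 members of the complex rose. NUP133 fell by 0.11 (100.7 ± 1.44 CPM with the POLK sgRNA against 108.7 ± 2.16 CPM with the control sgRNA) and NUP160 by 0.06 (198.6 ± 2.56 CPM with the POLK sgRNA against 207.7 ± 1.12 CPM with the control sgRNA), while NUP43 (64.3 ± 1.41 CPM with the POLK sgRNA against 63.7 ± 1.74 CPM with the control sgRNA) and NUP85 (51.9 ± 2.66 CPM with the POLK sgRNA against 53.8 ± 0.996 CPM with the control sgRNA) were not called. NUP160 lost its call on leaving out POLK sgRNA library 3 (adjusted p = 0.077) and with library size alone (0.058), and NUP85 gained one on leaving out POLK sgRNA library 3 (adjusted p = 0.032). Outside the NUP symbols, the Y complex also holds SEC13, which fell by 0.18 (144.7 ± 2.41 CPM with the POLK sgRNA against 163.8 ± 2.27 CPM with the control sgRNA), and SEH1L, which was not called (log2 fold change −0.07, SE 0.03).

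In the inner ring, which anchors the central channel, 4 of 5 genes were not called and NUP93 fell. Of all genes, 64.3% were called. NUP93 had 120.1, 118.8 and 120.1 CPM in POLK sgRNA libraries, against 167.8, 171.0 and 167.6 CPM in control sgRNA libraries. The groups were far apart, with a log2 fold change of −0.50 (SE 0.02, adjusted p = 1.14e-18, edgeR) and a level 70.9% of control. NUP93 lies on chromosome 16 (56730105 to 56850286), where its neighbours had a median of −0.40 and 29 of 40 fell. Its direct partners NUP205 and NUP188 had log2 fold changes of −0.00051 (SE 0.02) and −0.05 (SE 0.03), and those of NUP155 and NUP35 were −0.03 and 0.06. NUP188 was called lower on leaving out POLK sgRNA library 1 (adjusted p = 0.044).

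On the cytoplasmic side of the pore, 2 of the 3 genes moved in opposite directions, where 64.3% of all genes were called. RANBP2, the giant filament protein that holds RANGAP1 at the pore and acts as a SUMO ligase, had 123.7, 120.4 and 114.8 CPM in POLK sgRNA libraries, against 172.3, 171.2 and 178.5 CPM in control sgRNA libraries. It fell to 68.8% of control, a log2 fold change of −0.54 (SE 0.03, adjusted p = 4.16e-18, edgeR), further than its neighbours on chromosome 2 (108719481 to 108785811), whose median was −0.28. RANBP2 has close copies on chromosome 2, the RGPD genes, so reads may be split between them, and the 2 highest of these, RGPD8 and RGPD2, averaged 3.41 and 1.41 CPM with the POLK sgRNA, against 4.03 and 1.75 CPM with the control sgRNA.

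NUP88, which docks on the cytoplasmic face with NUP214, had 129.4, 130.1 and 127.6 CPM in POLK sgRNA libraries, against 98.7, 95.2 and 96.2 CPM in control sgRNA libraries. It rose to 133.5% of control without overlap, a log2 fold change of 0.42 (SE 0.03, adjusted p = 7.97e-16, edgeR), among neighbours on chromosome 17 (5360963 to 5420160) with a median of −0.01. RPAIN, on the opposite strand, shares exon bases with NUP88 (18.7% of the exon bases of NUP88 are shared with RPAIN or RABEP1) and rose as well, at 66.8 ± 1.24 CPM with the POLK sgRNA and 44.6 ± 2.97 CPM with the control sgRNA. Library preparation did not mark strand, so reads from the shared bases cannot be assigned to either gene. NUP214 itself was not called (137.9 ± 6.66 CPM with the POLK sgRNA against 134.9 ± 1.25 CPM with the control sgRNA), passed as higher on leaving out POLK sgRNA library 3 (adjusted p = 0.034) and changed sign on leaving out POLK sgRNA library 1 (log2 fold change −0.0031).

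Of the 4 tested members of the central channel 3 fell, as did the 2 members of the nuclear basket, each to a small extent. Among all genes 31.6% fell, and with so few members these counts do not describe the channel or the basket as a whole. NUP62 and NUP98, whose phenylalanine-glycine repeats form the permeability barrier, fell by 0.13 (95.3 ± 1.89 CPM with the POLK sgRNA against 104.6 ± 1.54 CPM with the control sgRNA) and 0.11 (139.2 ± 1.86 CPM with the POLK sgRNA against 150.6 ± 2.95 CPM with the control sgRNA). Other genes share 21.1% of the exon bases of NUP62, chiefly ATF5 on the opposite strand, which fell by 0.35. NUP54 fell by 0.09 (42.8 ± 2.14 CPM with the POLK sgRNA against 45.6 ± 1.86 CPM with the control sgRNA) with overlapping groups (adjusted p = 0.044, edgeR). It lost its call on leaving out control sgRNA library 1 (0.19), POLK sgRNA library 2 (0.28) or POLK sgRNA library 3 (0.069), with library size alone (0.10), in DESeq2 (0.085) and in limma-voom (0.062). NUP58, their partner, was not called (130.7 ± 2.07 CPM with the POLK sgRNA against 128.3 ± 1.36 CPM with the control sgRNA). Among the basket members, NUP50 fell by 0.19 (113.2 ± 4.13 CPM with the POLK sgRNA against 129.6 ± 2.14 CPM with the control sgRNA) and NUP153 by 0.09 (127.6 ± 2.42 CPM with the POLK sgRNA against 135.4 ± 2.54 CPM with the control sgRNA). TPR, a basket protein outside the NUP symbols, was higher by 0.06 with overlapping groups (288.4 ± 7.26 CPM with the POLK sgRNA against 277.3 ± 4.38 CPM with the control sgRNA, adjusted p = 0.036, edgeR), a call lost on leaving out control sgRNA library 1 (0.17) or 2 (0.14) or POLK sgRNA library 1 (0.083) or 2 (0.18), with DESeq2 size factors (0.068), in DESeq2 (0.099) and with the replicate block (0.062). NUP210, a membrane-spanning nucleoporin, rose by 0.17 (52.3 ± 1.37 CPM with the POLK sgRNA against 46.6 ± 0.870 CPM with the control sgRNA).

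**Figure D5:**
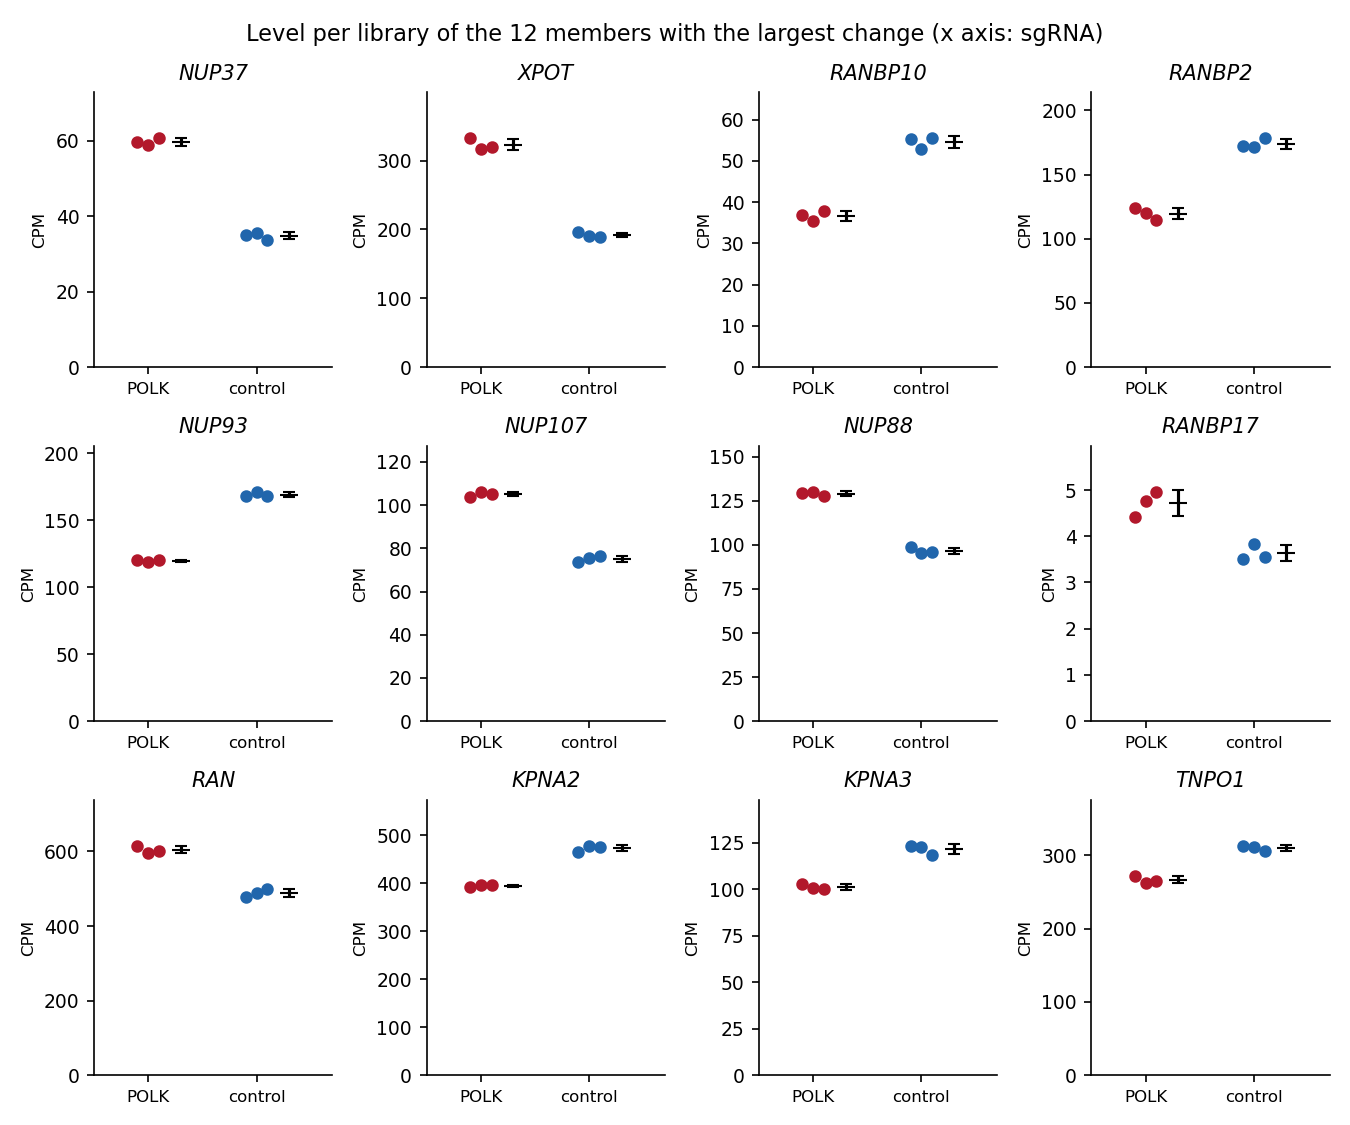
CPM (y axis, from 0) in each POLK sgRNA library and each control sgRNA library of the 12 members with the largest absolute log2 fold change among those called, with the mean and SD beside the points (n = 3 each). In all 12 panels the libraries of the 2 groups do not overlap, which follows largely from choosing the largest called changes. Over all genes tested, the groups did not overlap in 34.6% that were higher and 33.1% that were lower.

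Of the ligase scaffolds, RANBP10 fell and RANBP9 was not called. RANBP10 had 36.9, 35.5 and 37.9 CPM in POLK sgRNA libraries, against 55.3, 52.9 and 55.6 CPM in control sgRNA libraries, a log2 fold change of −0.57 (SE 0.04, adjusted p = 7.03e-16, edgeR). It lies on chromosome 16 (67723066 to 67806652) among neighbours with a median of −0.38, of which 37 of 40 fell. RANBP9, on chromosome 6, was at 37.7 ± 1.69 CPM with the POLK sgRNA and 37.1 ± 1.69 CPM with the control sgRNA.

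The 5 members with too few counts for a test are given as counts summed over the 3 libraries of a group. IPO4, an importin beta for histones, held 36 counts with the POLK sgRNA and 23 with the control sgRNA. IPO4 shares 70.1% of its annotated exon bases with other genes, almost all of it with a protein-coding gene on the same strand, and a read in shared bases cannot be assigned to IPO4. NUP62CL, a relative of NUP62, held 1 count with the POLK sgRNA and 27 with the control sgRNA, a ratio of 0.0352 with an exact 95% counting interval of 0.000861 to 0.214. NUP210L, a relative of NUP210 expressed in testis, held 15 counts with the POLK sgRNA and 30 with the control sgRNA, a ratio of 0.476 (0.238 to 0.912). KPNA7, the importin alpha of oocytes and embryos, held 2 counts with the POLK sgRNA and 1 with the control sgRNA, and RANBP3L held 0 with the POLK sgRNA and 2 with the control sgRNA, where 3 counts over the POLK sgRNA group would be 0.0196 CPM. These intervals and floors cover counting error only.

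Levels were also compared between members per length, as CPM per 1000 exon bases of the GENCODE 29 basic annotation, in which the choice of annotated exons sets the scale. RAN was at 190.7 ± 3.03 with the POLK sgRNA and 154.3 ± 3.10 with the control sgRNA, and RANBP1 at 150.4 ± 1.13 with the POLK sgRNA and 161.8 ± 4.08 with the control sgRNA. RAN was thus the highest member with the POLK sgRNA, while in control sgRNA libraries KPNA2, at 170.4 ± 2.33, stood above RANBP1 and RAN. KPNA2 was at 142.1 ± 0.704 with the POLK sgRNA. Of the exportins, CSE1L was at 126.6 ± 1.76 with the POLK sgRNA and 113.8 ± 1.53 with the control sgRNA, and XPO1 at 82.5 ± 1.46 with the POLK sgRNA and 94.1 ± 1.32 with the control sgRNA. XPOT was at 50.4 ± 1.34 with the POLK sgRNA, close to XPO6 (48.1 ± 0.918), and at 29.9 ± 0.523 with the control sgRNA, below XPO6 (50.3 ± 0.993) and level with XPO7 (30.0 ± 0.454). Within the importin alphas KPNA2 exceeded the next, KPNA3, which was at 22.6 ± 0.329 with the POLK sgRNA and 27.1 ± 0.612 with the control sgRNA. TNPO1 was below TNPO2 in both groups, and by more with the POLK sgRNA (23.7 ± 0.419 against 32.6 ± 0.757 for TNPO2) than with the control sgRNA (27.6 ± 0.342 against 28.9 ± 0.435 for TNPO2). IPO7 stood well above IPO8, at 56.9 ± 1.36 and 22.4 ± 0.333 with the POLK sgRNA and at 62.1 ± 0.198 and 22.8 ± 0.0984 with the control sgRNA.

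Transport and pore genes outside these symbols were taken from a separate list of 34, of which 33 were in the table and all 33 were tested. Of them 11 rose and 14 fell, together 75.8%, against 64.3% of all genes. The share that rose (33.3%) was close to the 32.8% of all genes, and the share that fell was 42.4%, against 31.6%. Their median was −0.06 on the log2 scale. NXF1, the main mRNA export receptor, averaged 67.8 ± 1.77 CPM with the POLK sgRNA and 99.4 ± 1.55 CPM with the control sgRNA, a log2 fold change of −0.55 (adjusted p = 6.73e-18, edgeR) among neighbours with a median of 0.02. NUTF2, which imports Ran, fell by 0.46 and the RNA helicase DDX19A of mRNA export by 0.56, both on chromosome 16 among neighbours with medians of −0.41 and −0.43. DDX19A shares 26.9% of its exon bases with other genes, and its copy DDX19B beside it fell as well. NCBP2, of the nuclear cap-binding complex, and the SUMO protease SENP2 fell by 0.32 each on chromosome 3, among neighbours with medians of −0.45 and −0.47. AAAS, a nucleoporin on chromosome 12, and RAE1, an mRNA export factor on chromosome 20, rose by 0.40 and 0.37, where the medians of their neighbours were 0.50 and 0.16. The membrane nucleoporin POM121 rose by 0.33 (229.6 ± 7.60 CPM with the POLK sgRNA against 182.6 ± 0.951 CPM with the control sgRNA), and its near-identical copy POM121C was not called (165.1 ± 5.99 CPM with the POLK sgRNA against 171.8 ± 1.21 CPM with the control sgRNA), so the split of reads between them is uncertain. NUPL2, listed under an older name of NUP42, fell by 0.14.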

How the data were processed

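Raw counts per gene were deposited by the authors as a single table for 6 libraries, with Ensembl identifiers and symbols. The submitters' processing notes name FastQC, Trimmomatic, STAR, DESeq2 and the build GRCh38. The counting tool, strand setting and annotation were not given in the sources used here. TruSeq RNA V2 libraries, named in the labels' protocols, carry no strand mark. Columns were matched to samples by name.

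Genes were kept by filterByExpr (minimum count 10, minimum total 15; 13930 of 16934). TMM factors were 0.991 to 1.007. The comparison used the two-sided, robust quasi-likelihood test of edgeR 4.0.16 in R 4.3.3 without covariates, and p-values were adjusted by Benjamini-Hochberg over all genes tested (threshold 0.05). Each standard error was derived from the F statistic and the fold change. CPM uses TMM-scaled library sizes. On simulated counts of 13840 genes, the test recovered 34% of genes changed 1.1-fold, 76% at 1.25-fold, 90% at 1.5-fold and 94% at 2-fold (50 genes each), and called 15 unchanged genes. Positions and exon lengths came from GENCODE 29 (GRCh38), which holds all 57 members.

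Full statistics were given by rule to POLK, the 12 members with the largest called change, the 3 smallest p-values in each class, XPO1, KPNB1 and RAN; of other pathway genes, the 3 smallest p-values in each of 3 lists were named. A gene that this rule names is not reported here. The members and lists were chosen with earlier results of these data known. Alternative fits used DESeq2 size factors, library size alone, no filter, a minimum mean of 1 CPM, a replicate block, DESeq2 1.42.0, limma-voom (limma 3.58.1) or 5 of the 6 libraries, and counts were repeated over members outside shifted neighbourhoods. Sums without 1 gene were added after seeing the data.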

Additional observations from a re-analysis of the deposited data

How the results depend on the processing

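Of the 36 called members, 29 kept their direction and call under all 13 alternative fits and none changed sign; XPO6, XPO7, IPO13, KPNB1, KPNA6, NUP160 and NUP54 lost the call under at least 1. Over members outside shifted neighbourhoods only, 4 rose and 20 fell in place of 11 and 25, which is 10.0% and 50% of those tested in place of 21.2% and 48.1%; the cause was not tested. With library size alone, 2 exportins fell in place of 4, and the median log2 fold change over all genes went from 0.0083 to 0.024. That of XPO6 went from −0.064 to −0.049 and that of XPO7 from −0.060 to −0.044, and the cause was not tested. Leaving out each library in turn gave 10 to 12 members higher and 21 to 25 lower, 3 exportins higher and 3 to 4 lower, 2 to 3 importins higher and 7 to 9 lower, 4 to 5 pore genes higher and 8 to 10 lower, 9 to 11 other pathway genes higher and 13 to 17 lower, and 4181 to 4441 of all genes higher and 4091 to 4286 lower. Same-numbered libraries did not deviate together (correlations −0.013, −0.036 and 0.013), so the numbers were not taken as pairs, and with the replicate number as a block 11 members rose and 25 fell. The largest shift of the median over all genes was 0.016.

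Genes without a call changed sign near 0. With library size alone the log2 fold change was 0.0041 for IPO5, 0.015 for NUP205 and 0.010 for AHCTF1. RANBP6 had −0.00086 with DESeq2 size factors and −0.00081 in DESeq2, and NUP205 had 0.0034 without a filter. Leaving out each library in turn gave −0.033 to 0.044 for RANBP6, −0.0023 to 0.034 for NUP43, −0.011 to 0.0061 for NUP205, −0.0031 to 0.068 for NUP214, −0.014 to 0.049 for RANBP9, −0.011 to 0.024 for NCBP1, −0.026 to 0.012 for AHCTF1 and −0.0068 to 0.031 for RCC1. In simulated counts, 34% of genes changed 1.1-fold were recovered. The simulation changed only 50 genes at each fold, drawn from all levels, while 64.3% of real genes were called. Its share therefore need not hold for these genes, and a missing call does not show that a gene was unchanged.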

Other observations

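The mRNA export receptor NXF1 was lower with the POLK sgRNA, and both cofactors that pair with it were higher. NXT1, on chromosome 20, averaged 26.4 ± 0.250 CPM with the POLK sgRNA and 18.6 ± 1.20 CPM with the control sgRNA (SD, n = 3 each), a log2 fold change of 0.50 (SE 0.05, adjusted p = 1.89e-11, edgeR) among neighbours with a median of 0.62. NXT2, on the X chromosome, averaged 14.4 ± 0.310 CPM with the POLK sgRNA and 9.11 ± 0.322 CPM with the control sgRNA, a log2 fold change of 0.66 (SE 0.06, adjusted p = 6.40e-12, edgeR) among neighbours with a median of −0.10. In both genes the groups did not overlap. GLE1, which activates the helicase of mRNA export at the pore, averaged 83.8 ± 2.60 CPM with the POLK sgRNA and 72.6 ± 0.677 CPM with the control sgRNA, and rose by 0.21. These genes were chosen after their values were seen.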
